A study of Mus musculus with 24 samples.

Results

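The Sprouty and Spred genes encode inhibitors of receptor tyrosine kinase signalling, and 6 of them were followed here by name: Spry1, Spry2, Spry4, Spred1, Spred2 and Spred3. All 6 were among the 15736 genes of the deposited count table, and Spry3 had 0 rows there. The tissue was mouse otocyst epithelium, which gives rise to the inner ear, and its RNA was read by stranded poly(A) sequencing. Control embryos (con) were Rosa26rtTA/+, which express the doxycycline-dependent activator rtTA from the broadly active Rosa26 locus. Experimental embryos (R2b) were Rosa26rtTA/+;Tg(tetO-s(dn)Fgfr2b)/+. Doxycycline makes them secrete the ligand-binding part of FGFR2b, which binds ligands such as FGF3 and FGF10 and keeps them from cell-surface receptors. Con and R2b embryos thus share the Rosa26rtTA allele and the drug. The drug was injected into the pregnant female at 1.5 mg/kg and continued in chow at 200 mg/kg. Exposure E9.75+12h began at embryonic stage E9.75 and lasted 12 hours. Exposures E9.25+24h and E10.25+24h lasted 24 hours from the stage in their names. Otocysts of the same genotype were pooled within each litter, so every library is a pool of embryos. Counts were used from 3 litters at E9.75+12h and from 4 litters at each other exposure, 22 libraries of 18.7 to 28.2 M counts.

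FGF receptors signal through RAS, RAF, MEK and ERK, and the ETS transcription factors and phosphatases that ERK induces include negative regulators of the same route. Sprouty proteins bind adaptors such as GRB2 and the ubiquitin ligase CBL and dampen signalling upstream of or at RAF. Spred proteins share the cysteine-rich Sprouty domain and carry an EVH1 domain, through which SPRED1 brings the RAS-inactivating protein neurofibromin to the membrane. Transcription of several of these genes rises with ERK activity, so they are commonly read as feedback genes of FGF signalling. In the mouse inner ear, loss of Spry2 is known to disturb the pillar cells of the organ of Corti.

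The 3 Spred promoters are shown because these paralogs included the largest and the smallest responses described below. Each is the 250 bases before the RefSeq start of transcription in GRCm38.p6, read in the direction of the gene. Spred3 is at chr7:29168648-29168897 on the minus strand, Spred1 at chr2:117120821-117121070 on the plus strand and Spred2 at chr11:19924192-19924441 on the plus strand. Capitals mark CGGAAG, an extended form of the GGAA core bound by ETS factors, or its reverse complement CTTCCG.
Spred3: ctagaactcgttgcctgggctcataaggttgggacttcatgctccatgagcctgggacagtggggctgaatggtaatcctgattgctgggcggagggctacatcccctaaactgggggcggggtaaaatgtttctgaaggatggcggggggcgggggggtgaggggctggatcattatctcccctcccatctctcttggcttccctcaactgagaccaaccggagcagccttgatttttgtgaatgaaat
Spred1: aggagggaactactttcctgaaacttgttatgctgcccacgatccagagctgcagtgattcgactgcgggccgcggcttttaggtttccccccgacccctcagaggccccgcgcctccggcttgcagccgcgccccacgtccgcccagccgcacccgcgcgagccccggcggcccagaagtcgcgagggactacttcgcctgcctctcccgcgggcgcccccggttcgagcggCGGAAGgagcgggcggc
Spred2: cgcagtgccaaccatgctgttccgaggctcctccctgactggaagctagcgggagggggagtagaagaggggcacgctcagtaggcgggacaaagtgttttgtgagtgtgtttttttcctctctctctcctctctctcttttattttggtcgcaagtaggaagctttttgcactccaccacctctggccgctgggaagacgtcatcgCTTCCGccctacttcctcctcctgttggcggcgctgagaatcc
CGGAAG was searched on both strands and contains the GGAA core. It stood 17 to 12 bases before the RefSeq start in Spred1 and, on the other strand, 43 to 38 bases before the RefSeq start in Spred2. The GENCODE model of Spred2 starts at 19924375, inside this window, and the Spred2 match lies downstream of that position. It had 0 matches in the windows of Spred3, Spry1 and Spry2. The window of Spry4 is not reported here. Of 27025 mouse promoter windows of this length, 13.8% held it. The bare core GGAA, on either strand, occurred 1 time in the Spred3 and Spry1 windows, 3 times in Spry2, 4 times in Spred1 and 7 times in Spred2, and 93.4% of all windows held it. The letters TGANTCA of AP-1 and TGACGTCA of the cyclic AMP response element had 0 matches in these 5 windows, against 6.87% and 1.62% of all windows with at least 1. A match describes letters only, and no binding was measured.

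All 6 genes fell in R2b at both exposures that ended at E10.25, and in each case every R2b library lay below every con library. Fold changes were tested in edgeR against all genes, with a Benjamini-Hochberg adjusted p (FDR) under 0.05 as the threshold. At E9.75+12h the threshold was passed by 6 of 6 genes, all lower, against 20.0% of the 14882 genes tested in either direction and 9.78% in the lower direction. The groups did not overlap, with R2b lower, for 6 of 6 genes and for 20.9% of all genes. At E9.25+24h it was again 6 of 6, against 15.6% of 14979 genes called and 6.50% called lower, and 1535 of all genes had R2b wholly below con. The median log2 fold change of the 6 genes was -1.39 after the shorter exposure and -1.24 after the longer, and that of all genes tested was 0.01 and -0.01. A pool of embryos with fewer cells that express a gene and one with less RNA per cell cannot be told apart in these data.

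**Figure D1:**
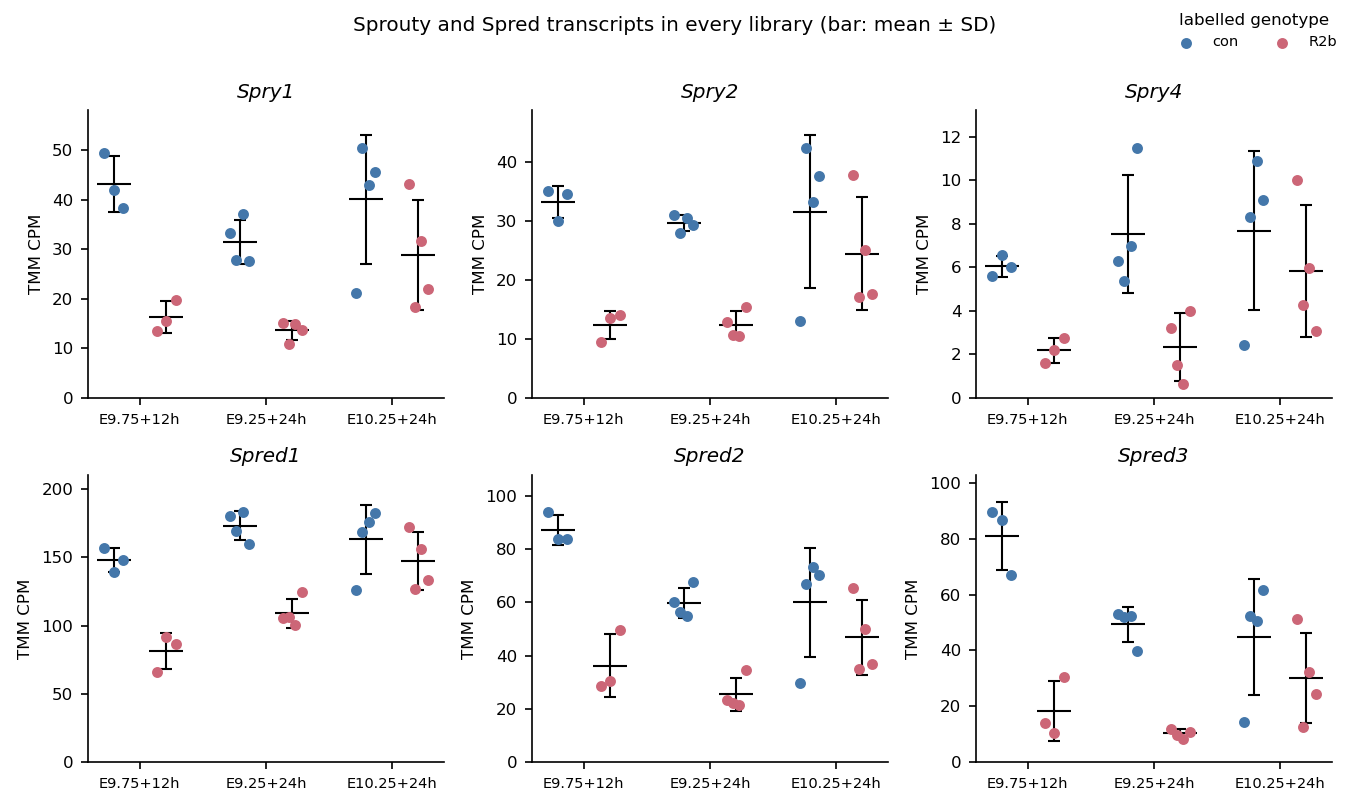
Each panel plots 1 gene in every library in CPM (counts per M library counts, scaled by TMM, linear axis from 0), by exposure and labelled genotype, with points for single litters and bars for the mean ± SD. In the exposures E9.75+12h and E9.25+24h all R2b points lie below all con points in each of the 6 panels, and at E10.25+24h the labelled groups overlap in all 6.

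Spry1 (ENSMUSG00000037211, plus strand of chromosome 3, 37639947 to 37644598, GRCm38) encodes a Sprouty best known for restraining RET signalling in the kidney. At E9.75+12h it was at 49.4, 42.0 and 38.3 CPM in con of litters 1 to 3 and at 13.5, 15.5 and 19.9 CPM in R2b. At E9.25+24h con had 33.2, 27.9, 37.1 and 27.7 CPM and R2b had 15.05, 11.0, 14.9 and 13.6 CPM in litters 1 to 4. R2b was high in litter 3 of the first exposure, at 51.9% of its own con, but stayed below the lowest con library. The log2 fold changes were -1.39 (SE 0.16, FDR 5.68e-04) and -1.20 (SE 0.13, FDR 0.00136).

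Spry2 (ENSMUSG00000022114, minus strand of chromosome 14, 105891947 to 105896819) encodes the Sprouty whose loss affects the cochlea. At E9.75+12h con was at 35.1, 30.0 and 34.5 CPM and R2b at 9.57, 13.5 and 14.0 CPM. At E9.25+24h con was at 31.0, 27.9, 30.4 and 29.4 CPM, the narrowest con spread of the 6 genes, and R2b at 12.9, 10.7, 10.6 and 15.5 CPM. The R2b pools kept 27.3% to 52.6% of their own litter's con level across the 7 litters. Log2 fold changes were -1.40 (SE 0.16, FDR 5.68e-04) and -1.25 (SE 0.12, FDR 8.04e-04).

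Spry4 (ENSMUSG00000024427, minus strand of chromosome 18, 38586247 to 38601415) encodes a Sprouty widely used as an FGF readout in embryos, and it had the lowest counts of the 6. At E9.75+12h con was at 5.59, 6.54 and 6.01 CPM and R2b at 1.61, 2.21 and 2.75 CPM. At E9.25+24h con was at 6.31, 5.37, 6.97 and 11.5 CPM and R2b at 3.21, 1.50, 0.626 and 4.01 CPM. The last 4 values rest on 68, 31, 14 and 84 counts, and the pools ran from 8.99% to 50.9% of their con. The edgeR log2 fold changes were -1.45 (SE 0.25, FDR 0.00318) and -1.68 (SE 0.49, FDR 0.0495). The second call held in 6 of 19 alternatives, with log2 values of -2.07 to -1.36. With the litter as a block the FDR was 8.90e-04. In fits without the block, the call was lost on leaving out any single library of the exposure except R2b of litter 4, and the highest FDR, 0.175, came without litter 2. At E9.75+12h it held in 14 of 16, and its FDR was 0.0525 without litter 1 and 0.0515 with all libraries in one fit.

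Spred1 (ENSMUSG00000027351, plus strand of chromosome 2, 117121374 to 117182279) encodes the Spred that is mutated in Legius syndrome, a human RAS pathway disorder, and it changed least. At E9.75+12h con was at 157, 139 and 148 CPM and R2b at 66.3, 91.6 and 86.5 CPM. At E9.25+24h con was at 180, 169, 183 and 160 CPM and R2b at 105, 106, 100.2 and 125 CPM. R2b of litter 4 was high, at 77.9% of its con, while the other 6 litters lay between 42.3% and 65.9%. Its log2 fold changes were -0.84 (SE 0.12, FDR 0.00149) and -0.66 (SE 0.07, FDR 0.00148).

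Spred2 (ENSMUSG00000045671, plus strand of chromosome 11, 19924375 to 20024026) encodes a broadly expressed Spred. At E9.75+12h con was at 93.8, 83.8 and 83.7 CPM and R2b at 28.5, 30.6 and 49.8 CPM. At E9.25+24h con was at 60.0, 56.4, 55.0 and 67.7 CPM and R2b at 23.4, 22.4, 21.4 and 34.8 CPM. R2b was highest in litter 3 of the first exposure and in litter 4 of the second, at 59.5% and 51.4% of con. The log2 fold changes were -1.24 (SE 0.18, FDR 0.00149) and -1.22 (SE 0.15, FDR 0.00205).

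Spred3 (ENSMUSG00000037239, minus strand of chromosome 7, 29158829 to 29170411) encodes the family member that lacks a functional KIT-binding domain, and it fell most. At E9.75+12h con was at 89.4, 86.5 and 66.9 CPM and R2b at 14.1, 10.4 and 30.5 CPM. At E9.25+24h con was at 53.0, 52.1, 52.4 and 39.7 CPM and R2b at 12.1, 9.95, 8.46 and 10.9 CPM. Litter 3 of the first exposure stood apart, with both the lowest con and the highest R2b level, 45.6% of con against 12.0% to 27.5% in the other 6 litters. Log2 fold changes were -2.13 (SE 0.31, FDR 0.00141) and -2.25 (SE 0.14, FDR 1.28e-04). Only 12 of 14882 genes had a lower fold change at E9.75+12h and 9 of 14979 at E9.25+24h. Without litter 3 the E9.75+12h value was -2.83.

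The RefSeq start used above for Spred3 lies inside its GENCODE gene model, as does that used for Spred2. The exons of Spred3 overlap those of Ggn, which encodes the testis protein gametogenetin, on the opposite strand. Whether the counting used strand is not given in the sources used here, so reads of the pair cannot be told apart. Ggn had 6 to 73 counts per library and Spred3 189 to 1711. Ggn had log2 fold changes of -1.12 in the first exposure (edgeR FDR 0.0549) and -1.79 in the second (FDR 0.00632). It was named after its values were seen.

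**Figure D2:**
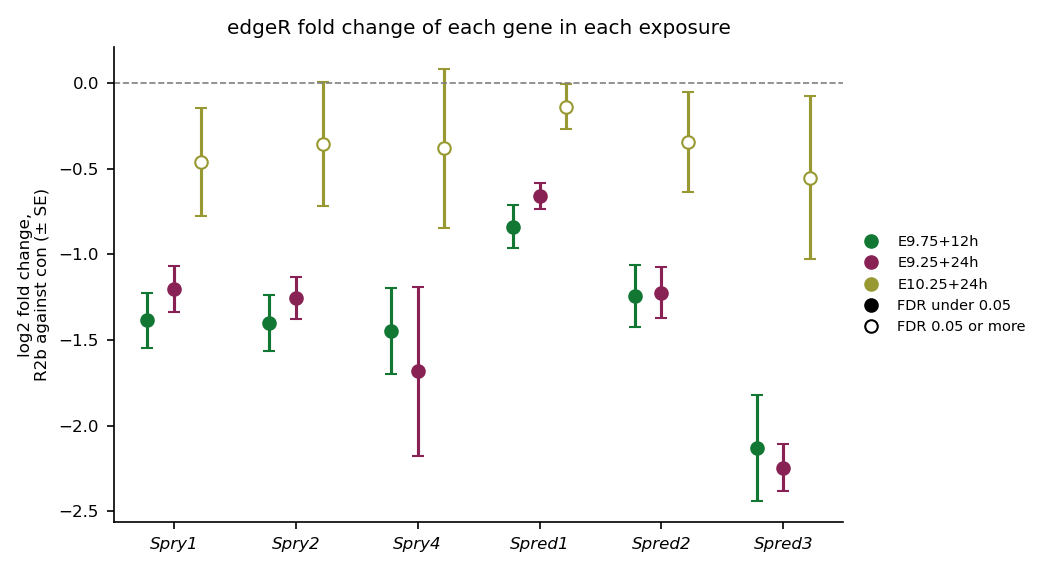
Points give the edgeR log2 fold change of R2b against con for each gene and exposure, bars 1 SE, and filled points an FDR under 0.05. The 12 points of E9.75+12h and E9.25+24h lie between -2.25 and -0.66 and are filled, and the 6 of E10.25+24h lie between -0.55 and -0.14 and are open.

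The paralogs did not respond equally. For each pair, the log2 ratio of the 2 genes within a library was compared between R2b and con, a measure that does not depend on library scaling apart from the prior count of 2. The difference was averaged over E9.75+12h and E9.25+24h and tested with a two-sided exact permutation test over libraries, labels permuted within exposure. Of 15 pairs, 8 had a Benjamini-Hochberg adjusted p under 0.05, and 4 of these involved Spred3 and 5 Spred1. Spred3 fell 1.49 further than Spred1 on the log2 scale (exact permutation adjusted p = 0.00429, 7 of 7 litters the same way). It fell 0.98 further than Spred2 and 0.95 further than Spry1 (both exact permutation adjusted p = 0.00429, 7 of 7 litters). It fell 0.91 further than Spry2 (exact permutation adjusted p = 0.00536, 6 of 7 litters). The unadjusted p behind 0.00429 is 0.00143, the smallest these permutations can give.

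Spred1 kept more of its level than the 5 other genes. The change in Spry1 minus that in Spred1 was -0.54, and that in Spry2 minus Spred1 was -0.58 (both exact permutation adjusted p = 0.00429, 7 of 7 litters). Spry2 and Spred1 differed by a like amount in every litter, between -0.70 and -0.49. The value was -0.90 for Spry4 against Spred1 (7 of 7 litters) and 0.51 for Spred1 against Spred2 (6 of 7 litters), both with an exact permutation adjusted p of 0.00536. Within single litters, Spred1 had the highest percentage of con in 6 of 7 and Spred3 the lowest in 5 of 7. Spry2 had the lowest in litter 3 of E9.75+12h, and Spry4 in litter 3 of E9.25+24h.

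Spry1, Spry2 and Spred2 were not shown to differ from each other. Spry1 minus Spry2 was 0.045 (exact permutation adjusted p = 0.722), with single litters between -0.28 and 0.35. Spry1 minus Spred2 was -0.029 (adjusted p = 0.82 in the exact permutation test), with litters between -0.20 and 0.22. Spry2 minus Spred2 was -0.074 (adjusted p = 0.59, exact permutation), with litters between -0.54 and 0.31. Spry4 fell further than Spred1 but was not shown to differ from Spry1, Spry2, Spred2 or Spred3. Its difference from Spred3 was 0.59 with litters between -0.68 and 1.52 (adjusted p = 0.19, exact permutation). With the litter as the paired unit, tested by exact sign flips, 6 pairs passed, and Spry2 against Spred3 and Spred1 against Spred2 each had an adjusted p of 0.0586. Within E9.75+12h alone 0 pairs could pass, because the smallest exact permutation p of 3 litters is 0.1. Within E9.25+24h alone 0 pairs passed, with a smallest exact permutation adjusted p of 0.0612.

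**Figure D3:**
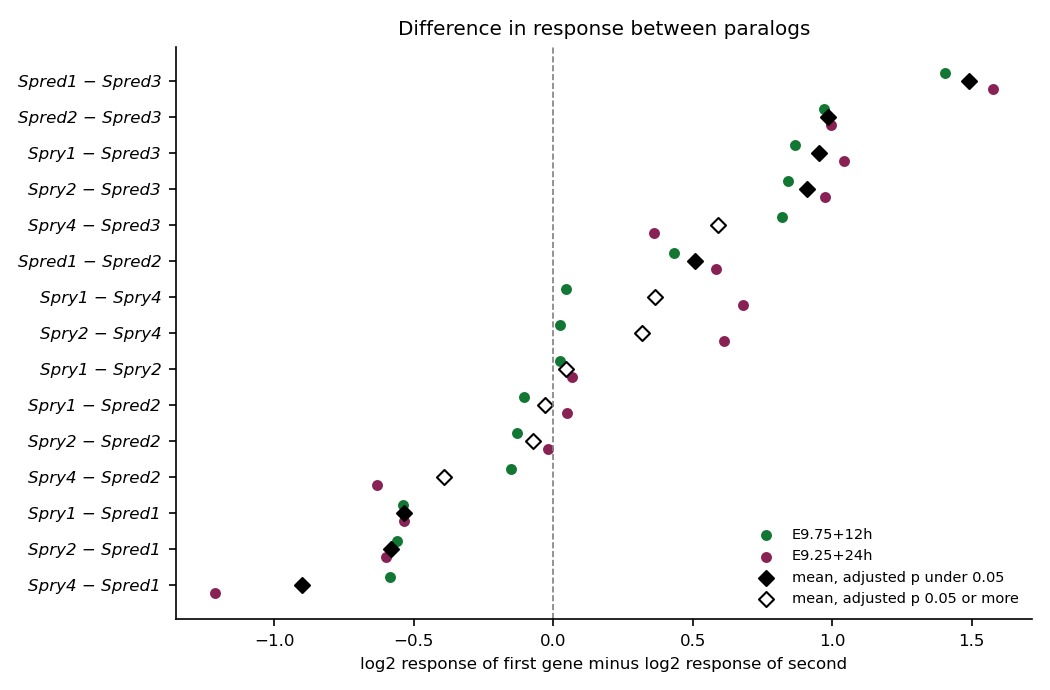
For each pair of genes the horizontal axis gives the log2 response of the first gene minus that of the second, in E9.75+12h and E9.25+24h (dots) and as their mean (diamonds, filled where the adjusted p is under 0.05). The 4 filled pairs with Spred3 have means between 0.91 and 1.49, and Spry1 against Spry2 has a mean of 0.045.

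The fall was already present at the shorter exposure. The test of the difference between the effects at E9.25+24h and at E9.75+12h, in all 22 libraries, called 0 of 6 genes and 0.00% of 15688 genes. The differences were 0.20 for Spry1, 0.17 for Spry2, -0.22 for Spry4, 0.20 for Spred1, 0.04 for Spred2 and -0.10 for Spred3, with standard errors between 0.18 and 0.72. At an unadjusted p under 0.05 it was 0 of 6 genes and 12.2% of all genes. DESeq2 also called 0 of the 6, with no adjusted p for Spry1, Spry2, Spry4 and Spred3. These errors leave room for effects that differ in size, and the 2 exposures differ in start, length and sequencing request, which cannot be told apart.

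The constant region of Ighg1 is part of the soluble receptor fusion. At E10.25+24h the level of Ighg1 stood out for the label in 3 of 8 libraries. It was high in the libraries labelled con of litters 1 and 3 and low in the library labelled R2b of litter 1. Ighg1 was at 679, 1.42, 201 and 0.736 CPM under the con label in litters 1 to 4 and at 54.6, 1155, 817 and 823 CPM under the R2b label. In the other exposures it was at 0.048 to 1.99 CPM in con and 1025 to 3056 CPM in R2b. The 54.6 CPM in the library labelled R2b of litter 1 thus lay above every con library of the other exposures and below every R2b library. The labels were kept. Of the 6 genes 0 were called at E10.25+24h, against 0.00% of 15203 genes. The libraries labelled R2b lay wholly below those labelled con for 0 of 6 genes, against 0.520% of all. The edgeR log2 fold changes were -0.46 for Spry1, -0.36 for Spry2, -0.38 for Spry4, -0.14 for Spred1, -0.35 for Spred2 and -0.55 for Spred3, each with an edgeR FDR of 0.9999. At an unadjusted p under 0.05, 0 of the 6 were lower, against 0.283% of all genes, and DESeq2 called 0.

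Litter 1 was opposite to the other litters in all 6 genes. The library labelled con of litter 1 was the lowest con library for 6 of 6 genes, and the library labelled R2b of litter 1 was the highest R2b library for 6 of 6. Spred3 was at 14.5, 52.3, 50.7 and 61.6 CPM under the con label and at 51.2, 12.8, 32.3 and 24.5 CPM under the R2b label. Spry2 was at 13.1, 42.4, 33.3 and 37.6 CPM against 37.8, 17.2, 25.1 and 17.7 CPM. In litter 1 the library labelled R2b thus had 353% of the Spred3 level and 288% of the Spry2 level of the library labelled con.

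The other genes gave the same picture. Spry1 was at 21.1, 50.4, 42.9 and 45.6 CPM under the con label and at 43.1, 18.4, 31.6 and 21.9 CPM under the R2b label. Spry4 was at 2.46, 8.29, 10.9 and 9.11 CPM against 10.0, 4.26, 5.98 and 3.09 CPM. In litter 1 the ratio was 204% for Spry1 and 408% for Spry4. Spred1 was at 126, 168, 176 and 182 CPM against 172, 126, 156 and 133 CPM, the flattest of the 6. Spred2 was at 29.6, 66.7, 73.3 and 70.3 CPM against 65.3, 34.9, 50.1 and 36.9 CPM. All 6 genes were lower in the library labelled R2b in litters 2, 3 and 4, where the percentages of con ran from 24.4% for Spred3 in litter 2 to 88.9% for Spred1 in litter 3.

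Litter 3 lay between. Its library labelled con had 201 CPM of Ighg1, but its levels of the 6 genes were nearer those of litters 2 and 4 than those of litter 1, and its library labelled R2b kept 54.9% to 88.9% of them. Without litter 1 the log2 fold changes were -0.93 for Spry1, -0.89 for Spry2, -1.06 for Spry4, -0.32 for Spred1, -0.77 for Spred2 and -1.22 for Spred3, with edgeR FDRs of 0.102 to 0.155. In a fit that also blocked on litter, 6 of 6 genes were called, with FDRs of 0.0198 for Spred2 to 0.0433 for Spred1. In all, 614 of the 15736 genes in the table were called there, in either direction. That fit kept the library labelled con of litter 3, and it was the only 1 of 21 alternatives with a call for any of the 6. Without litters 1 and 3 the value for Spred3 was -1.58 (FDR 0.267), on 2 litters.

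**Figure D4:**
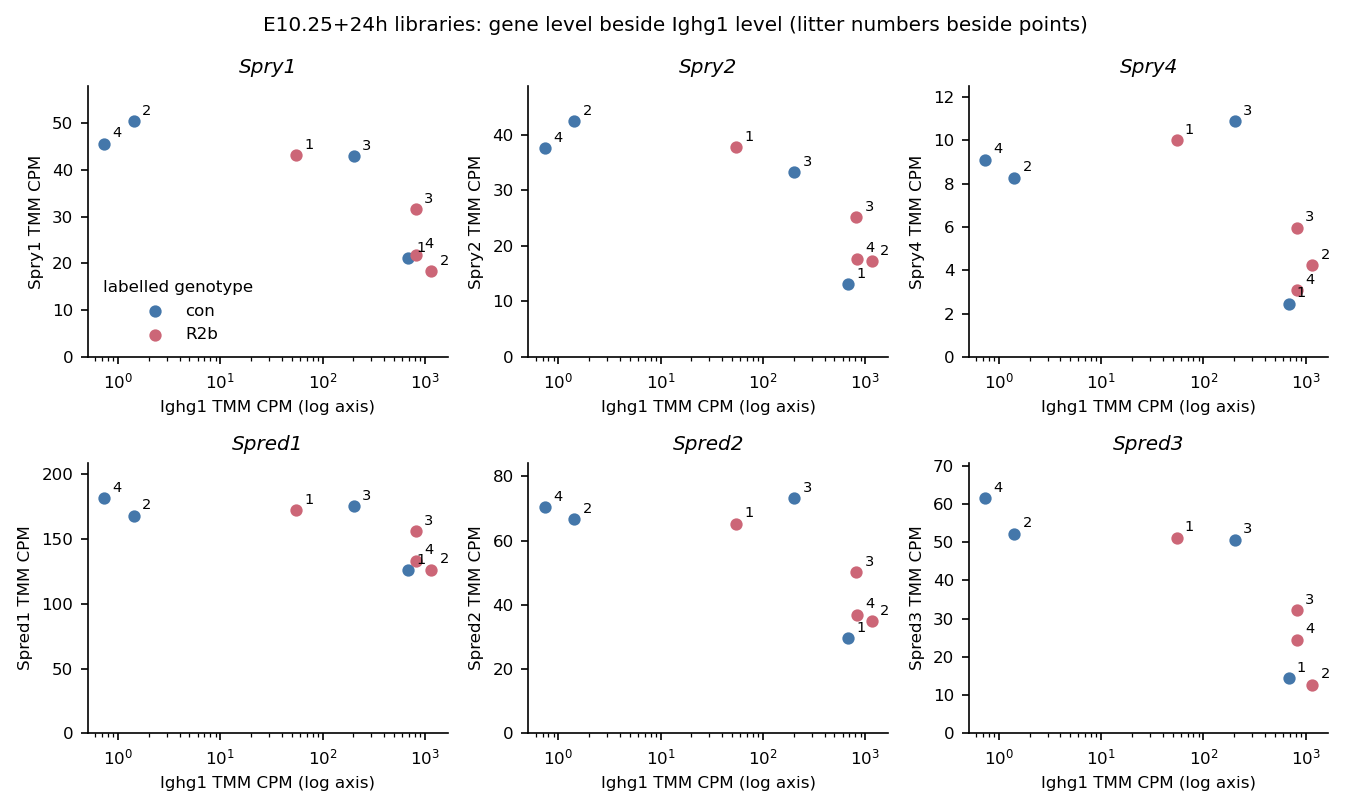
Each panel plots the level of 1 gene (CPM, linear axis from 0) against Ighg1 (CPM, log axis) in the 8 libraries of E10.25+24h, coloured by labelled genotype and numbered by litter. The library labelled con of litter 1, at 679 CPM of Ighg1, is the lowest con point in each panel, and the library labelled R2b of litter 1, at 54.6 CPM, is the highest R2b point.

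With the labels as given, effects at E10.25+24h were nearer 0 than at E9.25+24h for all 6 genes. The differences were 0.73 for Spry1, 0.89 for Spry2, 1.30 for Spry4, 0.52 for Spred1, 0.87 for Spred2 and 1.69 for Spred3. In the edgeR test 0 of 6 were called, with FDRs of 0.331 to 0.613, against 0.00% of all genes. At an unadjusted p under 0.05 it was 5 of 6 genes against 8.57% of all, and DESeq2 called 0 of 6. This contrast includes the E10.25+24h libraries whose Ighg1 level stood out for their labels: both of litter 1 and the library labelled con of litter 3. Their part in the differences was not tested. These exposures also differ in start, stage at the end and sequencing request, which cannot be told apart. Without litter 1 of E10.25+24h the differences shrank to 0.26 for Spry1, 0.33 for Spred1 and 1.02 for Spred3. For the other genes, the lowest values across litters left out were 0.35 for Spry2, 0.61 for Spry4 and 0.44 for Spred2. Each of the 6 genes was called in 0 of 17 alternatives.

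**Figure D5:**
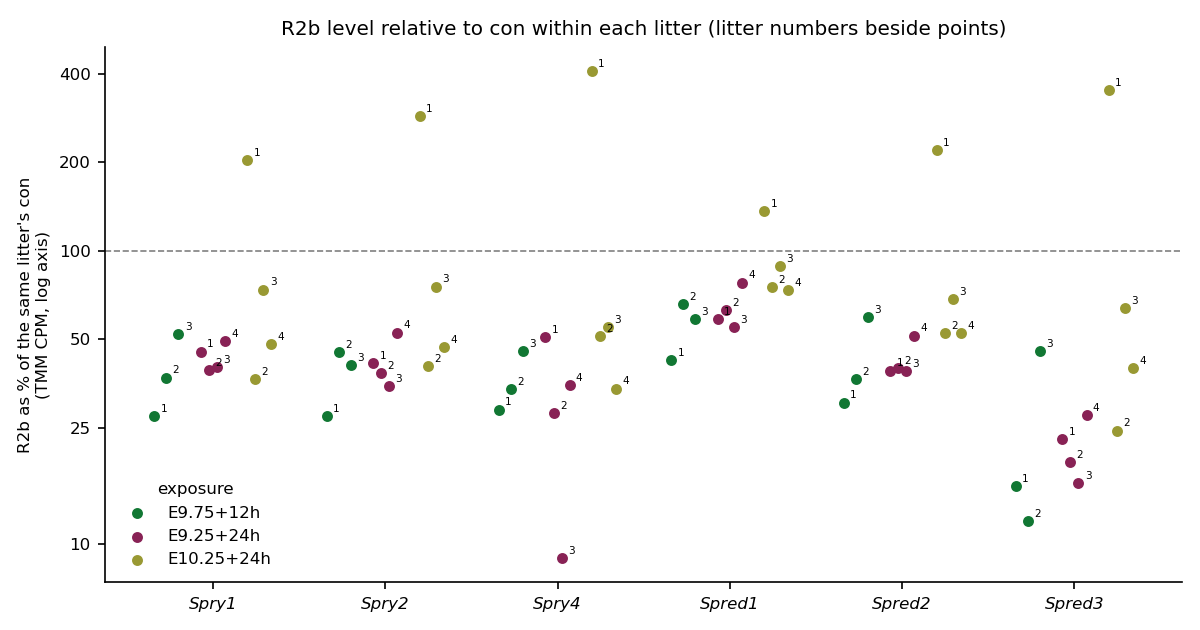
The vertical log axis gives the R2b level as a percentage of the same litter's con for each gene, coloured by exposure and numbered by litter, with a dashed line at 100%. All points of E9.75+12h and E9.25+24h lie under the line, and litter 1 of E10.25+24h is the only litter above it, at 137% to 408%.

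Per length of exon, the control otocyst held most Spred1 and least Spry4. At E9.75+12h the con levels were 21.8 ± 1.30 CPM per kb for Spred1, 18.9 ± 1.25 for Spred2, 15.9 ± 1.32 for Spry2, 14.9 ± 1.95 for Spry1, 13.0 ± 1.97 for Spred3 and 1.27 ± 0.10 for Spry4 (SD, n = 3). Spry2 overlapped Spry1, and Spry1 overlapped Spred3, while the other neighbours in that order did not overlap. At E9.25+24h the levels were 25.5 ± 1.56 for Spred1, 14.2 ± 0.65 for Spry2, 12.9 ± 1.23 for Spred2, 10.8 ± 1.55 for Spry1, 7.93 ± 1.03 for Spred3 and 1.58 ± 0.57 for Spry4 CPM per kb (SD, n = 4). There Spry2 overlapped Spred2, and Spred2 overlapped Spry1. At E10.25+24h, with labels as given, Spred1 was at 24.0 ± 3.72 and Spry4 at 1.62 ± 0.77 CPM per kb in the libraries labelled con (SD, n = 4). The place of Spred3 depends on the length used: over its longest transcript it was at 20.0 CPM per kb at E9.75+12h, second to Spred1, and at 12.2 at E9.25+24h.

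The other ERK feedback and ETS target genes, a list of 14 that excludes the 6 above, mostly fell or did not pass the test. At E9.75+12h 7 of 14 were called lower and 0 higher, where 9.78% of all genes were called lower, with a median log2 fold change of -0.34. The ERK phosphatase gene Dusp6 had 83.5 ± 4.27 CPM in con and 24.0 ± 6.96 in R2b (SD, n = 3 each) and fell by 1.78 on the log2 scale (FDR 3.47e-04). The ETS factor genes Etv5 and Etv4 fell by 2.36 and 2.54 on the log2 scale (FDR 8.86e-04 and 0.00208). At E9.25+24h 7 of 14 were called lower and 1 higher, where 6.50% of all genes were called lower, with a median of -0.37. Flrt3, which encodes a membrane protein that can bind FGF receptors, had 46.3 ± 2.36 CPM in con and 75.6 ± 6.07 in R2b (SD, n = 4 each) and rose by 0.71 on the log2 scale (FDR 7.68e-04). Etv5 fell by 2.41 and Dusp4, another ERK phosphatase gene, by 0.96 (FDR 9.98e-04 and 0.00201). The changes of Etv5 and Etv4 were lower than that of Spred3 at each of these exposures, and those of the other 12 were not. At E10.25+24h 0 of 14 were called by edgeR, where 0.00% of all genes were called.

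Genes between the receptor and ERK were called at a share near that of all genes. Of 24 such genes, 1 was called lower and 3 higher at E9.75+12h, and 3 lower and 2 higher at E9.25+24h, with medians of -0.01 and -0.02, where 20.0% and 15.6% of all genes were called. The adaptor gene Gab1 rose at both, by 0.46 (FDR 0.00518) and 0.35 (FDR 0.0108). The RAF scaffold gene Ksr1 rose by 0.78 at E9.75+12h (FDR 0.00200), and the receptor gene Fgfr3 rose by 0.65 at E9.25+24h (FDR 0.0341). Other calls, named after their values were seen, were Fgfr4, higher at E9.75+12h, and Map2k1 and Ptpn11, lower at E9.25+24h.

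Of 17 genes for known partners and regulators of Sprouty and Spred proteins, 1 was called lower and 1 higher at E9.75+12h, and 2 lower and 0 higher at E9.25+24h, where 20.0% and 15.6% of all genes were called. Kit, the receptor gene whose product SPRED1 and SPRED2 can bind, fell by 0.71 (FDR 0.00630) and 0.58 (FDR 0.00843). Nf1, the gene of neurofibromin, fell by 0.22 at E9.25+24h, from 133 ± 7.95 to 114 ± 7.58 CPM (SD, n = 4 each, FDR 0.0427). Siah2, which encodes a ubiquitin ligase for Sprouty proteins, rose by 1.01 at E9.75+12h (FDR 0.0170). The lists of receptor, cascade and partner genes had 0 calls at E10.25+24h, where 0.00% of all genes were called.

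The genes most like the 6 in pattern were sought over 22 libraries, with log2 CPM centred on the mean of each exposure, among 12801 genes. Among genes outside the 6, their mean had its highest Pearson r with Etv5 (0.990), then Ptpn9 (0.985), Dusp6 (0.983), Etv4 (0.974) and Morc4 (0.966). With the 6 genes themselves left out as candidates, the closest to each was Ppfibp1 for Spry1 (0.961), Etv5 for Spry2 (0.975), Etv1 for Spry4 (0.946), Morc4 for Spred1 (0.958), Ptpn9 for Spred2 (0.990) and Etv5 for Spred3 (0.978). The 22 points share the contrast between con and R2b and the depth of each library, and the values are descriptions.

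The labelled tissue was checked on marker lists. The 12 otic epithelium markers summed to 2569 to 8256 CPM in every library, and all 12 were in the table. Of these markers, 4 were called higher and 1 lower in R2b at E9.75+12h, and 2 higher and 2 lower at E9.25+24h, where 20.0% and 15.6% of all genes were called in either direction. Mesenchyme markers summed to 82 to 402 CPM at E9.75+12h and E9.25+24h, except for litter 4 of E9.25+24h, where con had 1353 CPM and R2b 1234 CPM. That litter also had the highest sums of its exposure for blood markers, 1659 CPM for con and 640 CPM for R2b, for endothelial ones, 307 and 141 CPM, and for hindbrain ones, 142 and 152 CPM. Its otic epithelium sums, 2569 and 3513 CPM, were the lowest con and R2b values of the exposure. At E10.25+24h the library labelled R2b of litter 3 had 5055 CPM of blood markers, against 168 to 708 CPM in the other 7. At both exposures 0 of the tested mesenchyme and blood markers were called by edgeR, and 1 endothelial marker, Tek, was called lower at E9.75+12h. Of 13 hindbrain markers, 4 were in the table, and 1 of these was called higher at E9.75+12h. In litter 4 of E9.25+24h the percentage of con kept by R2b was the highest of its exposure for Spry1, Spry2, Spred1, Spred2 and Spred3, and the part of these markers in it was not tested. Without litter 4, edgeR called 6 of 6 genes lower at E9.25+24h.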

How the data were processed

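Libraries were stranded and made from poly(A) RNA, per the labels' protocols. The authors deposited 1 table of raw counts of reads for each gene. Novoalign 2.08.03 and mm10 are named per the submitters' processing notes. The counting tool, strand setting, annotation release and gene filter are not given in the sources used here. Columns were joined to samples by the library numbers in the labels. Of 24 samples, 22 had a column, and 2 columns that match no label were not used. Symbols and lengths are from GENCODE M21 (GRCm38), promoters from RefSeq (GRCm38.p6).

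Each exposure, sequenced under its own request, was fitted alone in edgeR 4.0.16 (R 4.3.3; filterByExpr, TMM, glmQLFit, glmQLFTest; 2 group means), with Benjamini-Hochberg adjustment over all genes tested. SEs come from the F statistic. CPM is scaled by TMM factors. Differences between exposures were tested as contrasts of 6 group means. DESeq2 1.42.0, other scalings and filters, litter blocks and left-out litters or libraries were alternatives. The fits were tested on simulated data with known changes. Lowest and highest library totals were 18.7 and 28.2 M, so counting error matters mainly for Spry4. Reads carry no molecular identifiers.

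A litter is a pregnant female, and con and R2b pools were paired by the date or number that their titles share. Same-litter correlations of deviations from group means were -0.24 to -0.08 for E9.75+12h, where the pairing rests on the labels, 0.36 to 0.73 for E9.25+24h, and -0.10 to 0.37 for E10.25+24h. The 6 genes, the lists and the tests were chosen with earlier results of these data known. The rule for other named genes was at most 3 per list and exposure, smallest FDR first, and the 5 genes most like the mean of the 6 and 1 most like each, with a mean log2 CPM of 1 or more. Exceptions are marked in the text. Genes that were called but are counted without a name are not reported here.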

Additional observations from a re-analysis of the deposited data

Results flagged for a closer look

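Of 24 groups of 4 libraries (6 genes in 4 groups), 3 had 1 library far from the rest by Dixon's test, and chance gives such a gap in about 1 in 20 groups. Spred2 was at 34.8 CPM in R2b of litter 4 at E9.25+24h, against 21.4 to 23.4 CPM in the other R2b libraries of that exposure. Spred3 was at 39.7 CPM in con of the same litter, against 52.1 to 53.0 CPM in the other con libraries. That litter also had the highest sums of mesenchyme, blood, endothelial and hindbrain markers of its exposure and the lowest sums of otic epithelium markers, and their part in these levels was not tested. Spred2 was at 29.6 CPM in the library labelled con of litter 1 at E10.25+24h, against 66.7 to 73.3 CPM in the other libraries labelled con. That library had 679 CPM of Ighg1.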

How the results depend on the processing

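At E9.75+12h Spry1, Spry2, Spred1, Spred2 and Spred3 kept direction and call in all 16 alternatives, and at E9.25+24h in all 19. Spry4 is the exception given above. The replicate block (litter) changed none of the 12 calls at these exposures, but moved the genes called over the whole table from 2973 to 1775 and from 2335 to 6086. At E10.25+24h 6 of the 6 genes were called with the replicate block and litter 1 left out, and 0 in the other 20 alternatives. The number of paralog pairs with an adjusted p under 0.05 was 0 in E9.75+12h alone, where 3 litters cannot pass, and 0 in E9.25+24h alone, on 4 litters. It was 6 with the replicate block as sign flips. Spry1 minus Spred2 changed sign to 0.047 in E9.25+24h alone. The effect at E9.25+24h minus that at E9.75+12h was never called and changed sign for Spred3 with the replicate block (0.021). Across litters left out it ran from -0.064 to 0.41 for Spry1, -0.072 to 0.30 for Spry2, -0.49 to 0.032 for Spry4, -0.017 to 0.33 for Spred1, -0.21 to 0.32 for Spred2 and -0.44 to 0.55 for Spred3. Among pairs, across litters left out, Spry1 minus Spry2 ran from -0.037 to 0.121 and Spry2 minus Spred2 from -0.183 to 0.029. The cause of these changes was not tested. Counts of 14 to 84 limit the precision of Spry4 in R2b at E9.25+24h.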

Other observations

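Because the 6 genes fell by unequal amounts, their proportions differed between con and R2b. Taken as shares of the 6 genes' summed CPM per kb, with exon union lengths, Spred1 made up 25.5% ± 1.09 in con and 34.9% ± 4.83 in R2b (SD, n = 3 each) after the E9.75+12h exposure, and 34.9% ± 1.08 and 46.9% ± 2.33 at E9.25+24h (SD, n = 4 each). The share of Spred3 was 15.2% ± 1.84 in con and 8.21% ± 3.31 in R2b at E9.75+12h, and 10.9% ± 1.27 and 4.86% ± 0.62 at E9.25+24h. At E9.75+12h the share of Spry1 was 17.3% in con and 16.2% in R2b, and that of Spry2 was 18.6% and 17.1%. These shares come from the values tested above as pairs and carry no test of their own.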
